A study of Mus musculus with 18 samples.

Results

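Loss of hepatic cytochrome P450 reductase was examined in mouse livers on a diet made with fish and fungal oils, by comparing the 3 knockout arrays fed that diet with the 3 control arrays fed it, chosen by diet and genotype labels alone. These 6 arrays are part of 18 that cover both genotypes on 3 diets. All mice were males homozygous for floxed reductase alleles (POR-lox+/+). Knockouts also carried 1 copy of a Cre transgene under the albumin promoter (Alb-Cre+/-/POR-lox+/+), which is active in hepatocytes. Which liver cells lost or kept the gene was not measured here. Controls carried no Cre (Alb-Cre-/-/POR-lox+/+). Mice were weaned at 4 weeks onto synthetic diets, ate them for 8 weeks, and were killed at 12 weeks of age after a fast of 4 h. The fish/fungal diet held 3.27% ARASCO oil, a fungal oil rich in arachidonic acid, and 2.73% menhaden oil, a fish oil rich in long omega-3 fatty acids. The comparison diets held lard or canola oil in their place, and all diets held 0.025% cholesterol and 0.008% sodium cholate. The series text gives 6% fat and the sample labels 7%. Each array carried equal amounts of RNA from 3 mice, so 9 mice stand behind each group.

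P450 reductase, encoded by Por, passes electrons from NADPH to the microsomal P450 enzymes, which oxidise drugs, steroids and fatty acids, and to a few other enzymes such as squalene monooxygenase and haem oxygenase. Hepatocytes sense foreign and endogenous lipophilic compounds through the nuclear receptors CAR and PXR, which bind pairs of AGGTCA-like half-sites and drive P450, transferase and transporter genes. Arachidonic acid and the omega-3 acids of fish oil are substrates of P450 epoxygenases and hydroxylases, and ligands or regulators of several lipid-sensing transcription factors.

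The values are log2 expression values, and 12578 named genes were bright enough to test. Arrays correlated at 0.9902 to 0.99238 within the fish/fungal controls, at 0.98764 to 0.98975 within the knockouts and at 0.98495 to 0.99127 between them. On the first principal component of the 6 arrays (29.6% of the variance) knockout pools 1 and 2 lay at 15.22 and 13.45, but knockout pool 3 lay at -2.53, next to control pool 3 at -2.71 (control pools 1 and 2 were at -5.43 and -18). On the second component (26.3%) these 2 pools lay far apart, at -12.65 and 14.29. The hepatocyte gene Alb lay between 14.62 and 14.70 on all 6 arrays. That is close to the highest value on any array (14.893), and the share of hepatocytes was not measured. Por itself is not analysed here, which leaves the genotype of each pool as labelled. The labels name pools but no hybridisation batch, and p-values measure the spread between pools. In bulk liver, fewer cells of a type and less RNA per cell cannot be told apart.

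Knockout livers on fish/fungal oil had 32 genes higher and 5 lower than controls at an adjusted p under 0.05 (limma, Benjamini-Hochberg), which is 0.254% and 0.0398% of the genes tested and 0.294% in all. Of these 37 genes, 10 rose and 4 fell at least 2-fold. At an unadjusted p under 0.05 there were 959 genes (7.62%). Genes of foreign-compound metabolism led the rises, with Cyp2b10 at 40.5-fold, Cyp2c55 at 21-fold and Gstm3 at 8.42-fold. Obp2a, a secreted lipocalin, led the falls at 6.44-fold. The 3 knockout and 3 control arrays did not overlap for any of the 37 genes, against 10.9% of all genes tested (5.72% higher, 5.18% lower). The median change over all genes was -0.01. The count depended on single pools: it was 15 without control pool 1, 24 without control pool 2, 13 without knockout pool 2 and 15 without knockout pool 3. Without control pool 3 it was 33 and without knockout pool 1 it was 36. The plot of the largest rises shows each pool.

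**Figure D1:**
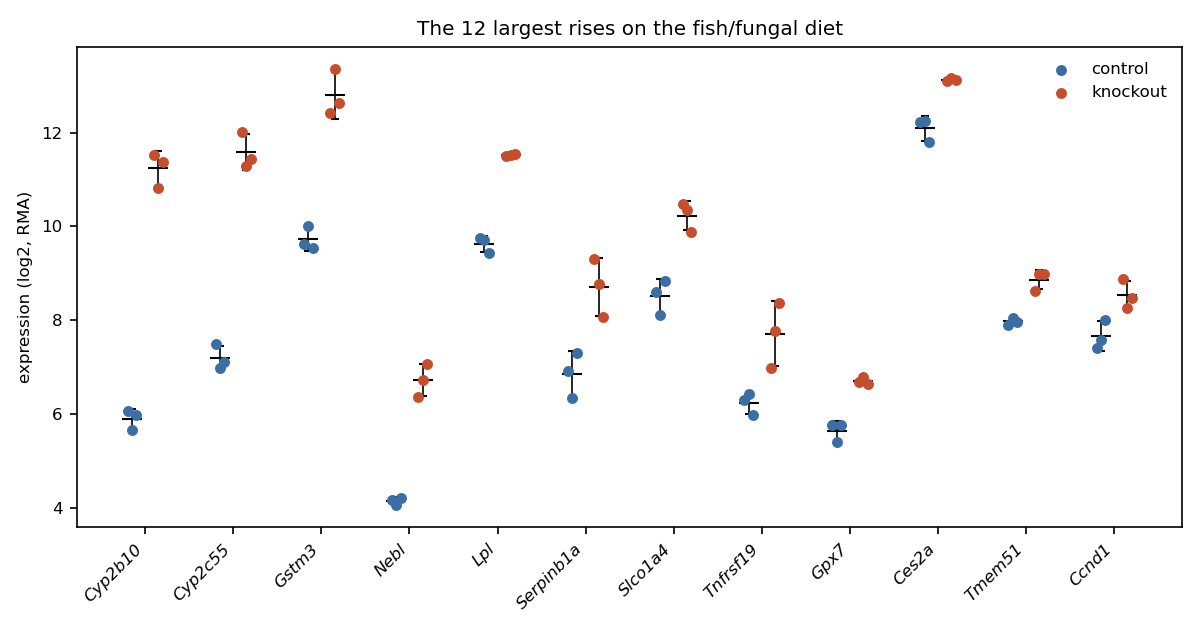
Deposited log2 RMA values (vertical axis) of the 12 genes with the largest rises, in the 3 control and 3 knockout pools fed fish/fungal oil, with group mean and SD. The groups do not overlap in any panel; Cyp2b10 lay between 5.66 and 6.07 in controls and between 10.82 and 11.52 in knockouts.

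The strongest rises were in targets of CAR and PXR. Of 29 tested targets 8 rose (27.6%) and 0 fell, against 0.254% and 0.0398% of all genes tested. The median target was 0.42 log2 units higher, 27 of 29 were positive in sign (47.5% of all genes tested were), and 19 had non-overlapping higher arrays, against 5.72% of all genes. The list was drawn up with earlier results of these data known, so these shares describe its members and support nothing by themselves. Promoter windows of 3 of the 8 are shown: Cyp3a11 and Ces2a hold half-sites of the kind these receptors bind, and Cyp2b10, the largest rise, holds none. The windows are the 250 bases before the start site, from RefSeq on GRCm38.p6, printed 5′ to 3′ along the gene, with AGGTCA or AGTTCA on either strand in capitals. In Cyp3a11 capitals also mark AGCTCA, the outer member of a pair. Cyp3a11 is on the minus strand at chr5:145879855-145880104, Ces2a on the plus strand at chr8:104733753-104734002 and Cyp2b10 on the plus strand at chr7:25897408-25897657.
Cyp3a11: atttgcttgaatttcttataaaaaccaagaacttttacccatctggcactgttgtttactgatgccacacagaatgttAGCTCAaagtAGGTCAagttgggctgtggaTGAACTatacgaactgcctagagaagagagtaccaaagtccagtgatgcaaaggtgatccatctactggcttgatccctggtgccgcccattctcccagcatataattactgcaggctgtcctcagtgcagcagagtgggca
Ces2a: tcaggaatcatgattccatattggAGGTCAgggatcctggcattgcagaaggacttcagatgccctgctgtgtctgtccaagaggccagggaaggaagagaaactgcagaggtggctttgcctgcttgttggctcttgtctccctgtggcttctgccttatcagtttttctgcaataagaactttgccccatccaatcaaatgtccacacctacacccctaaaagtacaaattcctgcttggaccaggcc
Cyp2b10: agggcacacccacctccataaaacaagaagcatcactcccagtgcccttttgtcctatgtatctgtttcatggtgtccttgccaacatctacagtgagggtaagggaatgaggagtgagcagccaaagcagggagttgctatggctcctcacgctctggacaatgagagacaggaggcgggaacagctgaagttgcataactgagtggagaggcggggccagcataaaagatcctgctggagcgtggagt
One or other half-site was found for 4 of the 8 genes (Ces2a, Cyp2c29, Cyp3a11 and Cyp3a25), against 24.2% of 32851 promoter windows of this length. Genes were counted if any of their windows matched, and Cyp3a25 has 2 windows, while the shares are of windows. AGGTCA alone was found for 4 of the 8 genes against 14% of windows, and AGTTCA for 1 against 11.8%. A pair of AGNTCA half-sites in 1 direction with 4 bases between them, searched on both strands, was found in Cyp3a11, with its first base at -172 from the start site, and in 0.103% of all windows. The windows of Cyp2b10, Cyp2c55, Gstm3 and Slco1a4 held neither half-site, which says nothing of sites elsewhere. A match describes letters and is not a measured binding site.

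Cyp2b10, the classical CAR-induced P450, lay at 6.07, 5.66 and 5.97 in the control pools and at 11.52, 10.82 and 11.38 in the knockout pools. Every knockout pool was far above every control pool. The change was 5.34 ± 0.49 SE log2 units (adjusted p = 1.6e-05, limma). Its other probe sets gave 7.79 and 7.42, with control means of 3.54 and 4.03 below the array medians, and may detect more than 1 Cyp2b gene. Cyp2b9, a related P450, was variable: it lay at 8.76, 7.13 and 6.70 in controls and at 5.73, 7.94 and 4.80 in knockouts, with overlapping groups (-1.37 log2, adjusted p = 0.78, limma).

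Cyp2c55, a P450 that hydroxylates arachidonic acid, lay at 7.49, 6.97 and 7.11 in controls and at 12.02, 11.29 and 11.43 in knockouts. The groups were again widely apart, by 4.39 ± 0.34 SE log2 units (adjusted p = 3e-06, limma). Gstm3, a mu-class glutathione transferase, lay at 9.62, 10.01 and 9.55 in controls and at 12.41, 13.36 and 12.62 in knockouts, where pool 2 was highest. It rose by 3.07 ± 0.35 SE (adjusted p = 0.00024, limma), and a further probe set of it gave 3.32. Cyp2b10, Cyp2c55, Gstm3 and Ces2a kept an adjusted p under 0.05 without any 1 of the 6 arrays (up to 0.0257 for Ces2a, without knockout pool 2).

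Ces2a, a carboxylesterase that hydrolyses drugs and lipids, lay at 12.23, 12.24 and 11.79 in controls and between 13.09 and 13.17 in knockouts. The low control pool was pool 3, and the rise was 1.04 ± 0.15 SE (2.06-fold, adjusted p = 0.0033, limma). The other carboxylesterases did not pass the test, and the median of the 11 tested was -0.17. Slco1a4, an uptake transporter of organic anions, lay at 8.60, 8.10 and 8.83 in controls and at 10.48, 10.34 and 9.88 in knockouts. Its rise of 1.72 ± 0.33 SE (3.3-fold, adjusted p = 0.029, limma) kept its call only without control pool 3, and missed it without each of the 5 other arrays (up to 0.168, without control pool 2).

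Smaller rises were seen in P450s that are abundant in control liver. Cyp2c29, an arachidonic acid epoxygenase, lay at 13.26, 13.11 and 13.05 in controls and at 13.78, 13.70 and 13.90 in knockouts (0.65 ± 0.10 SE, adjusted p = 0.0092, limma). Its call was lost without knockout pool 3 (0.0577). Cyp3a11, the main drug-oxidising Cyp3a enzyme of mouse liver, lay between 13.95 and 14.07 in controls and between 14.31 and 14.38 in knockouts. Its 0.34 ± 0.06 SE passed the test (adjusted p = 0.019, limma) but was called in only 1 of the 6 fits that left out an array, the one without control pool 1 (0.0942 at most, without control pool 2). Cyp3a25 rose by 0.36 ± 0.07 SE (adjusted p = 0.042, limma), and no fit without 1 of the 6 arrays called it (up to 0.168, without control pool 2). Near-identical Cyp2c and Cyp3a paralogs may share probes, and these sizes are uncertain for that reason. The values also lie toward the top of the range on these arrays (highest value 14.893). Whether changes are understated there was not tested.

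Across the CYP1, CYP2 and CYP3 families, 5 of 32 tested genes rose and 0 fell, with a median of 0.09. Over all genes tested 0.254% rose and 0.0398% fell, the shares to set beside the counts of these and the later lists. The CYP4 fatty acid hydroxylases had 0 of 10 past the test, with values from -0.24 to 0.38. Among glutathione transferases 1 of 20 rose, Gstm3. Gstm2 and Gstm1, of the same class, stood at 1.08 (adjusted p = 0.062) and 0.48 (adjusted p = 0.18) in the limma fit without passing. Of 27 targets of NRF2, the regulator of antioxidant genes, Gstm3 was again the 1 that rose, and the list median was 0.24. Glucuronosyl- and sulfotransferases had 0 of 17 called. Ugt2b37 stood at 1.69 ± 0.41 SE (adjusted p = 0.13, limma), which passed without knockout pool 2 (2.20, adjusted p = 0.0299). That pool (6.51, against 7.45 and 8.64) was the knockout nearest to the controls, so leaving it out enlarges the change. The flavin monooxygenases, oxygenases that need no reductase, had 0 of 4 called and a median of 0.19. The 10 redox partners of P450s, including cytochrome b5, had 0 called: Pgrmc2 stood at 0.19 (adjusted p = 0.82) and Cyb5a at 0.08 (adjusted p = 0.80). The 15 genes of haem synthesis and breakdown had 0 called and a median of -0.03.

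**Figure D2:**
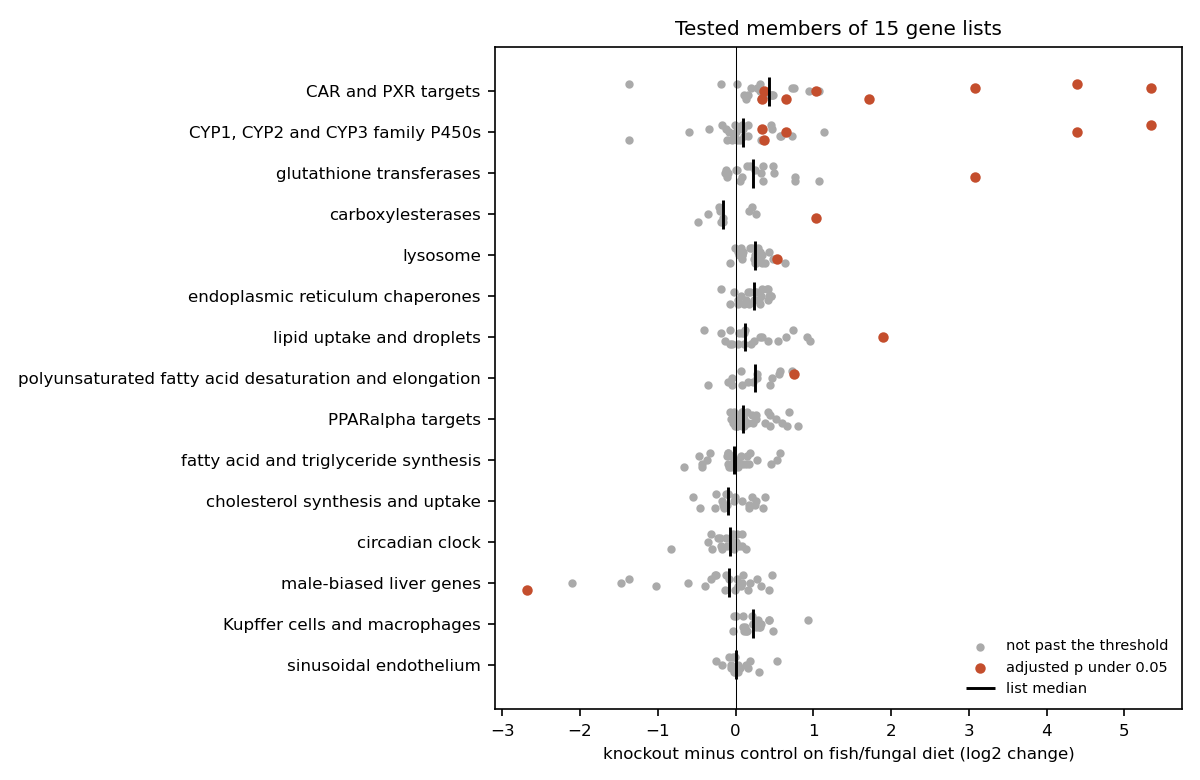
Knockout minus control log2 change on fish/fungal oil (horizontal axis) of each tested gene in 15 lists, with genes at an adjusted p under 0.05 in red and the list median as a black bar. The targets of CAR and PXR have a median of 0.42 and most other lists lie near 0; lists overlap, and they were drawn up with results of these data known.

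Among lipid genes Lpl changed most. Lipoprotein lipase, which it encodes, releases fatty acids from circulating triglyceride and is low in normal adult hepatocytes. Lpl lay at 9.74, 9.70 and 9.43 in controls and at 11.51, 11.53 and 11.55 in knockouts. The knockout pools were nearly equal and all above the controls. The rise was 1.90 ± 0.15 SE log2 units, 3.74-fold, with an adjusted p of 3e-06 (limma), and a further probe set gave 2.13. Its call held without any 1 of the 6 arrays (up to 5.51e-05). It was the only gene called among 23 tested for lipid uptake and droplets, where 17 were positive in sign and the median was 0.13. Cd36, a fatty acid carrier, and Pparg, a nuclear receptor of fat storage, stood at 0.92 (adjusted p = 0.62) and 0.95 (adjusted p = 0.42) in the limma fit. Their arrays did not overlap, which in the higher direction holds for 5.72% of all genes.

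Lpl is also a marker of adipocytes. The summed linear signal of the 6 tested adipocyte markers, Lpl included, was 1381 to 1587 in controls and 3689 to 3846 in knockouts. Of the 6, 4 were positive in sign and 2, Lpl and Pparg, had non-overlapping higher arrays, against 5.72% of all genes. Pparg stood at 0.95 (adjusted p = 0.42), Tshr at 0.04 (adjusted p = 0.97), Fabp4 at 0.20 (adjusted p = 0.87), Retn at -0.0036 (adjusted p = 0.996) and Lipe at -0.13 (adjusted p = 0.91, limma). Adipoq and Lep were too dim to test. Because Lpl is part of the sum, its own rise raises the sum, which is no separate measure of adipocytes. The part of adipocytes in the Lpl value was not tested.

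In polyunsaturated fatty acid desaturation and elongation 1 of 16 tested genes rose. Fads6, a member of the fatty acid desaturase family, lay at 9.61, 9.40 and 9.50 in controls and at 10.13, 10.34 and 10.28 in knockouts. The groups did not overlap and the rise was 0.75 ± 0.12 SE (1.68-fold, adjusted p = 0.012, limma). Its second probe set gave 0.29, and its call was lost without control pool 2, knockout pool 2 or knockout pool 3 (up to 0.0777). The desaturases that make arachidonic and docosahexaenoic acid did not pass: Fads1 stood at -0.35 (adjusted p = 0.83) and Fads2 at 0.22 (adjusted p = 0.91). Of the 16, 12 were positive in sign and the median was 0.25.

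Of 28 genes of eicosanoid and epoxide metabolism 2 rose, Cyp2c55 and Cyp2c29, against 0.254% of all genes, with a list median of 0.00. The 37 tested targets of PPARalpha, a receptor for fatty acids, had 0 called, though 31 were positive in sign (median 0.10). Angptl4, an inhibitor of lipoprotein lipase, stood at 0.67 (adjusted p = 0.37, limma). Fatty acid and triglyceride synthesis had 0 of 27 called with a median of -0.02. Its main regulator Srebf1 stood at -0.43 (adjusted p = 0.65) and Insig2 at 0.53 (adjusted p = 0.56), which passed without control pool 3 (0.87, adjusted p = 0.037). For Insig2 that pool (11.57, against 10.54 and 10.60) was the control nearest to the knockouts, so leaving it out enlarges the change. Cholesterol synthesis and uptake had 0 of 21 called and a median of -0.10, with Nsdhl at -0.55 (adjusted p = 0.63) and Tm7sf2 at -0.46 (adjusted p = 0.48). Bile acid synthesis had 0 of 20 called. Cyp39a1 and Cyp46a1, oxysterol and cholesterol hydroxylases, stood at -1.33 (adjusted p = 0.33) and 0.65 (adjusted p = 0.29). Apolipoproteins had 0 of 20 and glucose genes 0 of 19 called, each with a median of -0.03.

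Several other large rises belong to none of these lists. Nebl, nebulette, an actin-binding protein best known from heart muscle, lay at 4.17, 4.06 and 4.22 in controls and at 6.37, 6.73 and 7.06 in knockouts. All controls were below the array medians (5.269 to 5.279), where levels are poorly resolved, so the size of the fitted rise of 2.57 ± 0.29 SE (5.95-fold, adjusted p = 0.00024, limma) is uncertain. Its other probe sets were dim and gave 0.03 and 0.14. The Nebl call held without any 1 of the 6 arrays (up to 0.00321).

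Serpinb1a, an intracellular inhibitor of neutrophil proteases, lay at 6.91, 6.34 and 7.31 in controls and at 9.30, 8.77 and 8.06 in knockouts. Knockout pool 3 was lowest of its group, and the rise was 1.86 ± 0.35 SE (3.63-fold, adjusted p = 0.027, limma). Tnfrsf19, a receptor of the TNF receptor family, lay at 6.30, 6.42 and 5.97 in controls and at 6.99, 7.78 and 8.38 in knockouts. It rose by 1.48 ± 0.29 SE (2.8-fold, adjusted p = 0.041, limma), with 0.29 and 0.71 from its other probe sets. Serpinb1a was called without control pool 3 or knockout pool 3 but not without the 4 other arrays (up to 0.168, without control pool 2). Tnfrsf19 was called without knockout pool 1 and not without the 5 others (up to 0.186, without control pool 3).

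Gpx7, a peroxidase of the endoplasmic reticulum, lay at 5.76, 5.40 and 5.76 in controls and at 6.69, 6.79 and 6.63 in knockouts. It rose by 1.06 ± 0.19 SE (2.09-fold, adjusted p = 0.017, limma) and was the 1 gene called of 26 tested for peroxidation defence and ferroptosis. Tmem51 lay at 7.91, 8.06 and 7.97 in controls and at 8.63, 8.99 and 8.99 in knockouts (0.89 ± 0.15 SE, adjusted p = 0.016, limma). Ccnd1, the G1 cyclin, lay at 7.40, 7.57 and 8.02 in controls and at 8.87, 8.27 and 8.47 in knockouts, with control pool 3 the nearest to the knockouts. It rose by 0.87 ± 0.18 SE (adjusted p = 0.047, limma), with 1.11 and 1.23 from its other probe sets. It was the 1 gene called of 21 tested for the cell cycle, whose median was 0.00. Gpx7 was called without control pool 3 or knockout pool 1 and not without the 4 others (up to 0.102, without control pool 2). Tmem51 lost its call without control pool 1, knockout pool 2 or knockout pool 3 (up to 0.0939), and Ccnd1 without every array but control pool 3 (up to 0.228, without control pool 1).

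The other called genes that rose, named here after their values were seen, changed by less. Acp2, a lysosomal acid phosphatase, lay at 8.22, 8.45 and 8.21 in controls and at 8.83, 9.02 and 9.27 in knockouts (0.75 ± 0.11 SE, adjusted p = 0.0058, limma). Its call held without any 1 of the 6 arrays (up to 0.0419). Ctsz, the protease cathepsin Z and a member of the fixed lysosome list, lay at 11.48, 11.68 and 11.51 in controls and at 11.97, 12.17 and 12.14 in knockouts. Its rise was 0.54 ± 0.09 SE (adjusted p = 0.017, limma), with 0.27 and 0.52 from other probe sets. P2rx4, an ATP-gated channel found on lysosomes and the cell surface, rose by 0.51 ± 0.09 SE (adjusted p = 0.014, limma), with 0.73, 0.13 and -0.01 from other probe sets. Rragd, a GTPase that links lysosomal amino acids to mTORC1, rose by 0.85 ± 0.16 SE (adjusted p = 0.021), and Stbd1, a glycogen-binding protein, by 0.83 ± 0.14 SE (adjusted p = 0.012, limma). Ctsz and P2rx4 were each called without control pool 2 or knockout pool 1 and not without the 4 others (up to 0.113 and 0.0864). Rragd was called without knockout pool 1 alone (up to 0.14), and Stbd1 without control pool 2 or knockout pool 1 (up to 0.0756).

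In the lysosome list as a whole 1 of 28 tested genes rose, Ctsz, against 0.254% of all genes. The sign was positive in 26 of 28, the median was 0.25 and 10 had all knockout pools above all control pools, against 5.72% of all genes. Lipa, the acid lipase, stood at 0.49 (adjusted p = 0.26), Psap, the saposin precursor, at 0.37 (adjusted p = 0.26) and Atp6v0d2, a proton pump subunit, at 0.63 (adjusted p = 0.26, limma). Macrophages are rich in lysosomes. The summed signal of 22 tested macrophage markers was 15110 to 16569 in controls (median 15503) and 13556 to 22515 in knockouts (median 20171), so the groups overlapped. Of those markers 20 were positive in sign with a median of 0.22 and 0 were called. Their part in the lysosomal values was not tested.

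The remaining rises had log2 changes between 0.46 and 0.84. They include Idh2, mitochondrial isocitrate dehydrogenase that makes NADPH (0.68 ± 0.12 SE, adjusted p = 0.021, limma), and Tmem97, an endoplasmic reticulum protein that binds the cholesterol carrier NPC1 (0.65 ± 0.11 SE, adjusted p = 0.014). Cdkn2c, an inhibitor of the cyclin D kinases, rose by 0.66 ± 0.13 SE (adjusted p = 0.046), and Entpd5, a nucleotidase of the endoplasmic reticulum, by 0.75 ± 0.15 SE (adjusted p = 0.049). Tmed3, a cargo receptor, rose by 0.75 ± 0.15 SE (adjusted p = 0.049), and Srprb, the membrane subunit of the signal recognition particle receptor, by 0.53 ± 0.10 SE (adjusted p = 0.041). Adam11, Uap1l1, 1190005I06Rik, Wrnip1 and Cybc1 complete the set of called rises, at 0.84, 0.68, 0.64, 0.47 and 0.46. Each of the genes from Idh2 to Cybc1 lost its call without at least 3 of the 6 arrays, with adjusted p up to 0.257 (Entpd5, without knockout pool 2).

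Obp2a showed the largest fall. It is a secreted lipocalin of the odorant-binding family and is counted among male-biased liver genes. It lay at 8.52, 8.92 and 7.90 in controls and at 5.72, 5.71 and 5.85 in knockouts. The knockout pools were close together just above the array medians and far below every control. The fall was -2.69 ± 0.34 SE on the log2 scale, 6.44-fold, with an adjusted p of 0.001 (limma). It held without any 1 of the 6 arrays (up to 0.00982, without control pool 1).

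Tmem120a, a membrane protein of the nuclear envelope and endoplasmic reticulum, lay at 8.93, 9.25 and 9.29 in controls and at 6.95, 7.84 and 7.38 in knockouts. It fell by 1.77 ± 0.26 SE on the log2 scale (3.41-fold, adjusted p = 0.0042, limma), and no single array ended its call (up to 0.0243). Its gene at chr5:135735490-135744172 (GRCm38.p6) is the neighbour of the deleted one, and its nearer edge lies 164 bases from Por in genome coordinates. Of 29 protein-coding neighbours within 500000 bases on either side, 22 were tested and 1 was called, Tmem120a. The 21 others lay between -0.31 and 0.30.

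Nat8, an N-acetyltransferase of liver and kidney, lay at 9.54, 9.60 and 9.21 in controls and at 7.45, 8.36 and 8.39 in knockouts, where pool 1 was lowest. It fell by 1.38 ± 0.25 SE on the log2 scale (2.6-fold, adjusted p = 0.019, limma). Wfdc12, a small secreted protein of the whey acidic protein type, lay at 7.21, 6.33 and 7.28 in controls and at 6.06, 5.81 and 5.87 in knockouts. Control pool 2 was close to the knockouts, and Wfdc12 fell by 1.03 ± 0.18 SE on the log2 scale (2.04-fold, adjusted p = 0.014, limma). Snx17, a sorting nexin that recycles LDL receptor family proteins to the cell surface, lay at 9.74, 9.62 and 9.88 in controls and at 8.90, 8.93 and 8.81 in knockouts. Its log2 change was -0.87 ± 0.12 SE (adjusted p = 0.0033, limma), and its call held without any 1 of the 6 arrays (up to 0.0243, without knockout pool 3). The only probe set of Snx17 is of a cross-hybridising type, so Snx17 could not be tested without such probe sets. Nat8 lost its call without control pool 1, control pool 2 or knockout pool 1 (up to 0.101). Wfdc12 lost it without control pool 1, control pool 3, knockout pool 2 or knockout pool 3 (up to 0.101).

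**Figure D3:**
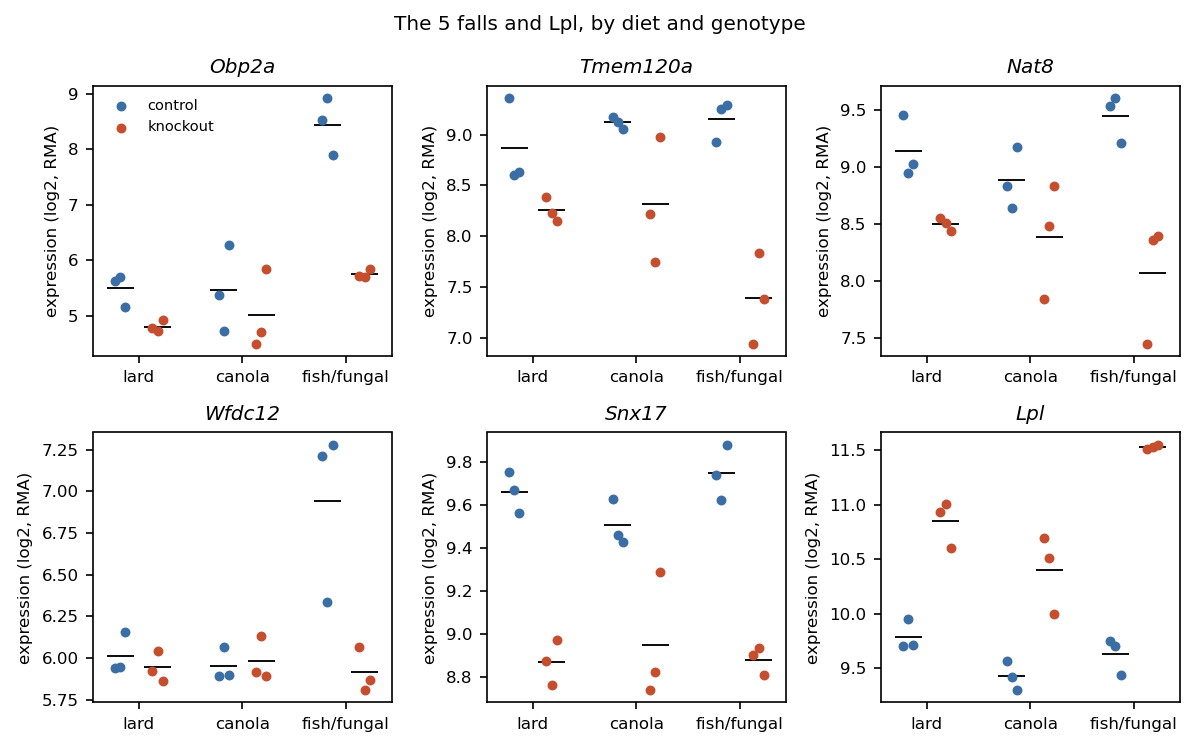
Log2 RMA values (vertical axis) of the 5 genes that fell and of Lpl in each pool of the 6 groups of genotype and diet, with lines at the group means. Obp2a lay at a mean of 8.45 in fish/fungal controls and at means of 4.81 to 5.76 in the 5 other groups.

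The falls differed in where the control level stood on other diets. Obp2a averaged 8.45 ± 0.51 (SD, n = 3) in fish/fungal controls, 5.50 ± 0.29 in lard controls and 5.46 ± 0.78 in canola controls. Knockouts averaged 5.76 ± 0.08 on fish/fungal oil, 4.81 ± 0.10 on lard and 5.02 ± 0.72 on canola. For Obp2a the fish/fungal controls thus stood above every other group, and several of the others lay near or below the array medians, where falls cannot be measured in full. Wfdc12 averaged 6.94 ± 0.53 in fish/fungal controls and between 5.91 and 6.01 in the 5 other groups. Tmem120a averaged 9.16 ± 0.20 in fish/fungal controls, 8.86 ± 0.43 in lard controls and 9.12 ± 0.06 in canola controls, against 7.39 ± 0.45, 8.26 ± 0.12 and 8.32 ± 0.62 in the matching knockouts. The Tmem120a control means lay close together and its lowest knockout mean was the fish/fungal one.

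The same 37 genes were read on the lard and canola diets, whose arrays are separate from these 6. All 37 had the same sign on lard and 36 on canola, against 65.9% and 62.9% of all genes tested. Of the 37, 18 were called on lard and 6 on canola, where 0.986% and 0.0636% of all genes were called. Canola knockout pools varied: Cyp2b10 lay at 11.08, 10.57 and 8.14, with pool 3 nearest to the canola controls (5.44 to 6.02). For Tmem120a pool 3 (8.97) was also nearest to the controls (9.06 to 9.18), against 8.22 and 7.75 in pools 1 and 2. Pool 3 was nearest as well for Cyp2c55, Gstm3, Nebl, Lpl, Slco1a4 and Snx17. Not all genes shared this: Rragd lay at 6.21, 6.97 and 6.31 in these pools, and Acp2 at 8.84, 8.79 and 8.77 without such a gap. The part of canola knockout pool 3 in the canola calls was not tested. Called on every diet were Cyp2b10, Cyp2c55, Gstm3, Ces2a, Lpl and Rragd, and 19 were called on neither other diet. The change was smaller in size on lard for 30 and on canola for 35, but the genes were chosen by their size on fish/fungal oil, which favours that order. Cyp2b10 stood at 5.12 ± 0.49 SE on lard and 4.28 ± 0.49 on canola, Cyp2c55 at 4.30 ± 0.34 and 3.72 ± 0.34, and Gstm3 at 3.51 ± 0.35 and 2.54 ± 0.35. None of these passed the test of a difference between diets that follows.

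**Figure D4:**
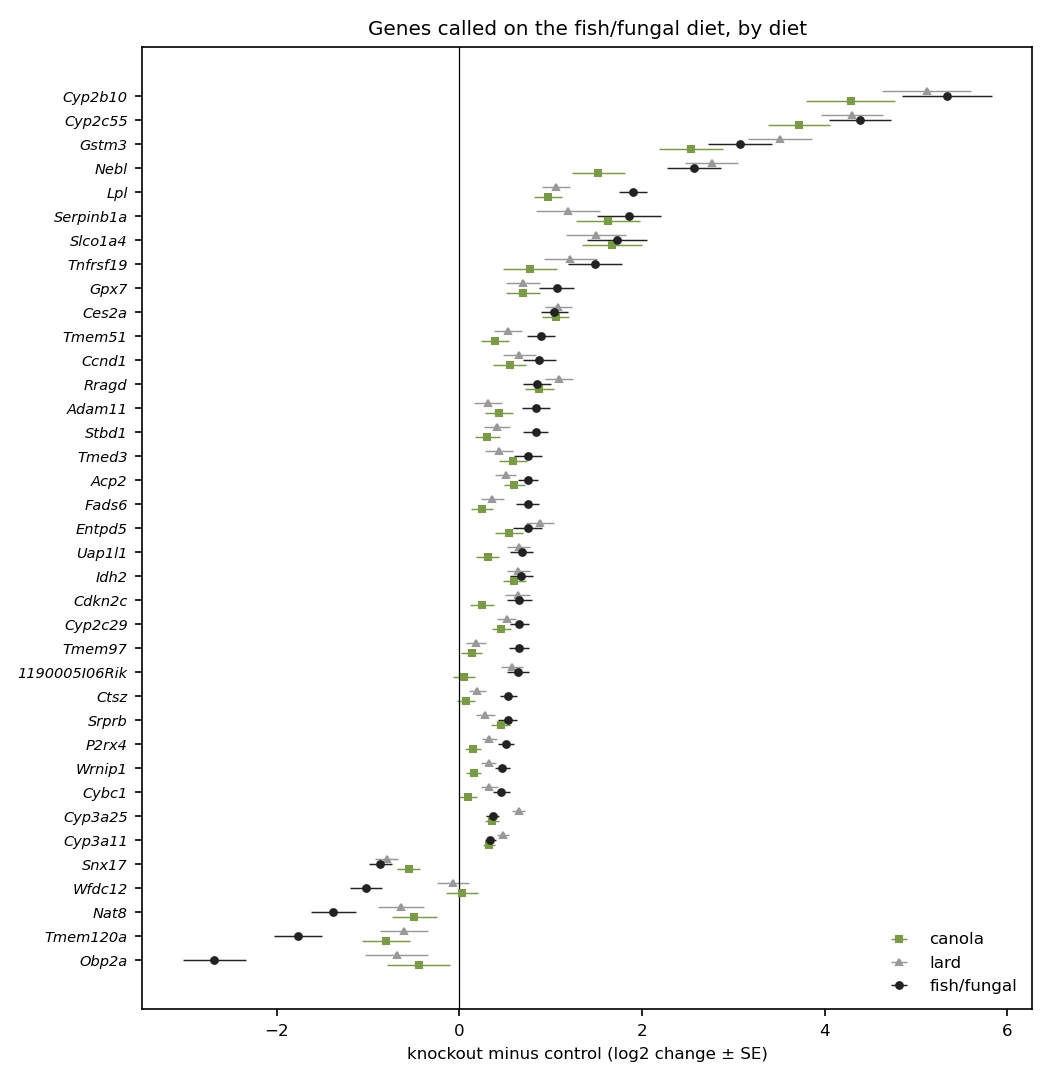
Knockout minus control log2 change with its SE (horizontal axis) of the 37 genes called on fish/fungal oil, on each of the 3 diets. Obp2a stood at -2.69 on fish/fungal oil, -0.69 on lard and -0.44 on canola, and the large P450 rises lie together on all diets.

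Whether the knockout effect on fish/fungal oil differed from the mean effect on lard and canola was tested by an interaction contrast. At an adjusted p under 0.05 0 of 12578 genes passed (limma), with 302 (2.4%) at an unadjusted p under 0.05. The separate contrasts against lard and against canola also gave 0, with 305 (2.42%) and 279 (2.22%) at that unadjusted level. No gene is therefore called particular to the fish/fungal diet. The 8 smallest p-values are given as values. Obp2a differed by -2.12 ± 0.42 SE (unadjusted p = 0.0001, adjusted p = 0.52). Wfdc12 differed by -1.01 ± 0.21 SE (adjusted p = 0.52). Lpl, at 1.06 ± 0.15 SE on lard and 0.97 ± 0.15 on canola against 1.90 on fish/fungal oil, differed by 0.89 ± 0.19 SE (unadjusted p = 0.00018, adjusted p = 0.52).

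Gpc1, a heparan sulfate proteoglycan, had the smallest p of the interaction (0.81 ± 0.13 SE, unadjusted p = 1e-05, adjusted p = 0.13, limma). Its controls averaged 7.01 ± 0.09 on lard, 7.13 ± 0.06 on canola and 6.34 ± 0.15 on fish/fungal oil, and its knockouts 6.43 ± 0.14, 6.44 ± 0.20 and 6.51 ± 0.07. The fish/fungal controls of Gpc1 stood near all knockout groups and below the other controls. Ccn1, a matrix protein induced by YAP and growth factors, differed by -1.06 ± 0.22 SE (adjusted p = 0.52, limma). Its fish/fungal controls lay at 6.38, 7.44 and 7.07 and the knockouts at 6.37, 6.44 and 6.50, so the groups overlapped through control pool 1. Pbx4, Rlf and Grasp stood at 0.61, -0.55 and -0.44 (adjusted p of 1.00 each). Single pools decided 3 of these calls. Gpc1 passed without canola knockout pool 3 (0.86, adjusted p = 0.0336), Ccn1 without fish/fungal control pool 1 (-1.35, adjusted p = 0.00107) and Wfdc12 without fish/fungal control pool 2 (-1.31, adjusted p = 0.000292).

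The lists of chaperones, acute phase proteins, the integrated stress response and interferon-stimulated genes gave no calls. Endoplasmic reticulum chaperones had 0 of 24 called, with 21 positive in sign, a median of 0.24 and 8 with non-overlapping higher arrays, against 5.72% of all genes. Hspa5, the chief chaperone, stood at 0.45 (adjusted p = 0.51), Dnajb9 at 0.42 (adjusted p = 0.51) and Pdia4 at 0.32 (adjusted p = 0.33, limma). Acute phase and complement proteins had 0 of 33 called. Lcn2, an iron-scavenging acute phase protein, stood at 1.97 ± 0.47 SE (adjusted p = 0.12, limma) and Orm3 at 1.10 ± 0.27 SE (adjusted p = 0.13). Both passed without control pool 3, at 2.66 (adjusted p = 0.00589) and 1.38 (adjusted p = 0.039). That pool was the control nearest to the knockouts, so leaving it out enlarges both changes. The control pools lay at 7.40, 6.22 and 8.88 for Lcn2 and at 7.10, 6.22 and 7.51 for Orm3. The integrated stress response had 0 of 23 called, with Asns at 1.54 (adjusted p = 0.49) and Trib3 at 0.56 (adjusted p = 0.15). Interferon-stimulated genes had 0 of 27 called, with Oasl2 at 0.48 and Usp18 at 0.47 (adjusted p = 0.28 each).

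Retinoid metabolism had 0 of 27 called. Cyp26a1, the retinoic acid hydroxylase that retinoic acid itself induces, stood at 1.73 ± 0.38 SE (3.33-fold, adjusted p = 0.063, limma), and passed when the 6 arrays were fitted alone (adjusted p = 0.00182). Rarres1 stood at 0.95 ± 0.20 SE (adjusted p = 0.060). Among 33 nuclear receptors and coregulators 0 were called, with the retinoic acid receptor Rarb at 0.83 (adjusted p = 0.14) from dim control values. Of 25 male-biased liver genes 1 fell, Obp2a, and 9 had all knockout pools below all controls, against 5.18% of all genes. Serpina12 stood at -1.47 (adjusted p = 0.080) and Scara5 at -1.03 (adjusted p = 0.064, limma). Of 18 female-biased genes 1 rose, Cyp2b10, and the median was 0.18. Of 19 bile salt and organic anion transporters 1 rose, Slco1a4. The 21 clock genes had 0 called and a median of -0.07.

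Markers of other cell types gave no call apart from Lpl. Stellate cell and fibroblast markers had 22 of 26 positive in sign and a median of 0.15, with sums of 9537 to 10836 in controls and 9923 to 13033 in knockouts. Sinusoidal endothelium had 9 of 18 positive and overlapping sums. Antigen-presenting cell markers had 8 of 9 positive, with Cd74 at 0.58 (adjusted p = 0.51) and H2-Ab1 at 0.57 (adjusted p = 0.63, limma). Lymphocyte, neutrophil, cholangiocyte and erythroid markers had medians of -0.04, -0.06, 0.06 and -0.19. Pancreatic acinar markers summed to 1485 to 1832 in controls and to 933.4 to 1329 in knockouts, without overlap. Most of that sum was Cela1, which stood at -0.65 (adjusted p = 0.49, limma) from control values of 10.24, 10.52 and 10.11. Of the 6 tested, 2 were positive in sign and the median was -0.07. Only 1, Cela1, had all knockout pools below all controls, against 5.18% of all genes. Prss2 stood at -0.11 (adjusted p = 0.86, limma). The part of acinar tissue in any other value was not tested. Within hepatocytes, 16 of 20 pericentral genes were positive (median 0.11), with sums of 75460 to 78098 in controls and 80412 to 92252 in knockouts. Cyp1a2, a pericentral P450, stood at 0.59 (adjusted p = 0.39). Of 17 periportal genes 4 were positive and the median was -0.04.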

How the data were processed

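Livers of 18 pools (6 groups of 3) were measured on the Affymetrix Mouse Genome 430 2.0 array. The deposited values were made by the authors with RMA, per the submitters' processing notes, and are on a log2 scale, as read from the values (2.409 to 14.893). RMA normalizes arrays to a common distribution and compresses low values. No value was missing and array medians lay between 5.2288 and 5.2859.

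Of 45101 probe sets, 34945 had 1 gene symbol, 932 several and 9160 were unnamed. Symbols were updated by gene ID (34741 matched) against RefSeq GRCm38.p6. A gene was read from its probe set with the highest mean, and tested if above the array median in at least 3 of 18 arrays (12578 of 18193 genes). Por is not analysed here.

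limma 3.58.1 in R 4.3.3 fitted 1 mean per group to the 18 arrays together, using limma's intensity trend. P-values are two-sided and Benjamini-Hochberg adjusted over all genes tested, with a threshold of 0.05. Errors are SEs of the fit. Named were the 12 largest rises and falls among called genes with non-overlapping arrays, the 8 smallest interaction p-values and, per list, up to 4 called members or up to 2 with the smallest p. Lysosomal, chaperone, lipid, transferase, marker, male-biased and Cyp2b9 or Cyp3a11 values outside this rule were named after they were seen. The 44 lists and the comparison were chosen with earlier results of these data known. Alternatives were repeated quantile normalization, median centring, other brightness filters, averaging the probe sets of a gene, no cross-hybridising probe sets, no trend, array weights, a replicate block, only the groups compared, and leaving out each array. Scripts were tested on simulated data.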

Additional observations from a re-analysis of the deposited data

How the results depend on the processing

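The main fit called 32 genes higher and 5 lower. Higher genes numbered 18 with probe sets averaged per gene (6 lower) and 17 with only the groups compared (5 lower). Of the 22 genes called with only the groups compared, 16 were among the 37 of the main fit. The other settings, which were repeated quantile normalization, median centring, no brightness filter, a filter at the 75th percentile, no cross-hybridising probe sets, no intensity trend, array weights and the replicate block, gave 23 to 36 higher and 4 or 5 lower. Leaving out each of the 18 arrays gave 9 to 36 higher and 4 to 8 lower genes. The interaction contrasts gave 0 calls under every other setting run and 0 or 1 when an array was left out. Only the groups compared gives no value for the interaction against the mean of lard and canola. All 37 called genes kept their sign without any 1 of the 6 fish/fungal arrays. This does not extend to uncalled genes, whose values could change sign between settings. With probe sets averaged per gene, Acp2, Cdkn2c, Ctsz, Cybc1, Entpd5, Fads6, Idh2, P2rx4, Serpinb1a, Srprb, Tmed3 and Tnfrsf19 lost their calls. With only the groups compared, 1190005I06Rik, Acp2, Adam11, Ccnd1, Cdkn2c, Ctsz, Cybc1, Cyp3a11, Cyp3a25, Idh2 and Nat8 lost theirs. So did P2rx4, Serpinb1a, Srprb, Stbd1, Tmed3, Tmem97, Tnfrsf19, Uap1l1, Wfdc12 and Wrnip1 in that setting. Of the 37 genes, 10 kept their call without any of the 6 fish/fungal arrays, 12 under every other setting and 9 under both: Ces2a, Cyp2b10, Cyp2c55, Gstm3, Lpl, Nebl, Obp2a, Snx17 and Tmem120a. Nebl could be tested in 8 and Snx17 in 9 of the 10 other settings.

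Replicate numbers did not pair the samples: deviations of same-numbered fish/fungal pools correlated at -0.176, -0.12 and -0.273. With the replicate block 25 genes were higher and 5 lower, 28 of these 30 being among the 37. Dim genes limit what can be seen, since 5615 genes were too dim to test.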

Other observations

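Chromosome 5 held 6 of the 37 called genes (16.2%) and 6.44% of the genes tested, and chromosome 2 held 6 (16.2%) against 7.86%. The 6 on chromosome 5 are Cyp3a11, Cyp3a25, P2rx4, Snx17, Stbd1 and Tmem120a, of which Tmem120a lies within 500000 bases of Por. Cyp3a11 and Cyp3a25 belong to 1 gene family.

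Moxd1, a male-biased monooxygenase-like gene, varied widely between pools. It lay at 9.04, 10.75 and 9.22 in fish/fungal controls and at 7.33, 4.57 and 10.79 in knockouts, and its adjusted p of 0.77 (limma) goes with overlapping groups.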
